A study of Homo sapiens with 8 samples.

Results

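The transcripts of the EGF-family ligands and of the ERBB receptors were followed in HepG2 cells after 4 h with an inhibitor of the BET proteins. The members were the ligand genes EREG, AREG, HBEGF, TGFA, BTC, EPGN and NRG1 and the receptor genes EGFR, ERBB2 and ERBB3, taken by name. They were chosen with earlier results of these data known. Of these 10 genes, 9 had a probe set of their own among the 19816 probe sets of the array table, and 0 of the members' probe sets were shared with another gene. AREG is not analysed here, so the values below cover 6 ligands and 3 receptors, each through 1 probe set. HepG2 is an established human liver tumour line with hepatocyte features, and 1 line stands for the cell type here. The groups were DMSO alone (3 arrays), JQ1 at 500 nM (2 arrays) and RVX-208 at 5000 nM (3 arrays), and the final DMSO content was 0.1% in each. Another JQ1 sample, which the design mentions, is not analysed here. JQ1 blocks both bromodomains of the BET proteins, through which these proteins bind acetylated chromatin, and RVX-208 (apabetalone) prefers the second bromodomain. The doses differ, so differences between the compounds are differences between these treatments and not between matched doses.

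EGF-family ligands are made as membrane-bound precursors and are cut loose by ADAM metalloproteases. They bind receptor tyrosine kinases of the ERBB family, which then pair and signal through RAS and MAP kinase and through PI3-kinase. Epiregulin (EREG), amphiregulin (AREG), TGF-alpha (TGFA), betacellulin (BTC), epigen (EPGN) and HB-EGF (HBEGF) bind EGFR, some of them ERBB4 as well, while neuregulin 1 (NRG1) binds ERBB3 and ERBB4. ERBB2 has no known soluble ligand and acts as a partner, and ERBB3 has a weak kinase and signals mainly through such partners. In liver this system takes part in hepatocyte growth and regeneration.

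Signals are log2 values normalised by the authors, so a difference of 1 is a 2-fold change, and a log2 value of one probe set is not set against that of another. Array medians lay between 7.26 and 7.31, and arrays of the same group had r = 0.9962 to 0.9973 across probe sets. The 7 hepatocyte markers measured had mean log2 signals of 10.57 to 13.50, and 0 of them passed the test in any comparison. Of all probe sets, 21.8% passed with JQ1, 5.21% with RVX-208 and 10.4% between the treatments. Of 17 markers of fibroblasts, blood cells and endothelium, only PDGFRB passed, with log2 fold changes of −0.30 ± 0.06 SE with JQ1 and −0.24 ± 0.05 with RVX-208. The mean log2 signal of the 6 fibroblast markers was 6.23 to 6.29 on DMSO arrays, 6.09 to 6.17 on JQ1 arrays and 6.06 to 6.12 on RVX-208 arrays. That of the 5 endothelial markers was also lower on treated arrays (5.81 to 5.85, 5.61 to 5.74 and 5.63 to 5.75), and that of the 7 hepatocyte markers was higher (12.33 to 12.37, 12.40 to 12.43 and 12.38 to 12.44). The 6 blood cell markers overlapped between all groups (7.48 to 7.65, 7.48 to 7.62 and 7.43 to 7.55). Their single means ran from 3.47 to 13.24, with LYZ at 13.19 and CD68 at 10.67 in DMSO. The blood cell list therefore does not show by its level that such cells were absent. The part of the shifts of the marker means in the results was not tested. The labels do not say whether arrays of a group came from separate cultures, so p-values measure only the spread between these samples, which may be technical. Precision is limited by the small number of arrays.

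Of the 5 members that passed with JQ1, the 4 other than ERBB3 have an entry in the RefSeq promoter table (GRCh38.p14). They are shown because they belong to transcripts that differed between JQ1 and DMSO, with EREG and HBEGF moving in opposite directions. The 250 bases before each start site are printed 5′ to 3′ on the gene's strand, from chr4:74364895-74365144 (plus strand) for EREG, chr5:140346604-140346853 (minus strand) for HBEGF, chr7:55018767-55019016 (plus strand) for EGFR and chr17:39687844-39688093 (plus strand) for ERBB2. Capitals mark matches to the motifs named after the sequences.
EREG: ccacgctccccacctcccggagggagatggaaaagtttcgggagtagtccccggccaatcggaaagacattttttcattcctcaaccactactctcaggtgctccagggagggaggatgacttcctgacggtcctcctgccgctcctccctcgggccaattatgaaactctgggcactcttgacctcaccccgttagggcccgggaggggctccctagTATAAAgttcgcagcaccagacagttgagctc
HBEGF: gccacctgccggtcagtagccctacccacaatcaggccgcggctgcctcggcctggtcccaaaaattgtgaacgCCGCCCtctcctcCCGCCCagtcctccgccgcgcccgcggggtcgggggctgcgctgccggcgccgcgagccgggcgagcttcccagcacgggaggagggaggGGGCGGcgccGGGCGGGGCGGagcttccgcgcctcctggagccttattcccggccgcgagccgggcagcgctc
EGFR: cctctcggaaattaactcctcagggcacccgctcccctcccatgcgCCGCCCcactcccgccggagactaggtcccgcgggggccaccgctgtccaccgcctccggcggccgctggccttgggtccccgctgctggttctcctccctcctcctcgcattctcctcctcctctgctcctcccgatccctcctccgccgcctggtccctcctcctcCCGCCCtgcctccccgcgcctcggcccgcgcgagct
ERBB2: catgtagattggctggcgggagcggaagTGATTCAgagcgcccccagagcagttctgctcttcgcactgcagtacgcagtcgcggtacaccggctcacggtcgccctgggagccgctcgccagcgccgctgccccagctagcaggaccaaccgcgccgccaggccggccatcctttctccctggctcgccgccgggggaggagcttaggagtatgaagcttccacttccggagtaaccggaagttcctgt
The motifs searched on both strands were the TATA box TATAAA, the CRE motif TGACGTCA, the E-box motif CACGTG, the GC box GGGCGG and the CArG box. An AP-1-like pattern, TGANTCA with any base in its middle, was searched too. The EREG window had 58.0% G and C and held 1 TATA box, 32 to 27 bases before the start. The HBEGF window had 76.4% G and C and 5 GC boxes, of which those at 63 to 58 and 58 to 53 bases overlap by 1 base, and no TATA box. The EGFR window (73.6% G and C) held 2 GC boxes and the ERBB2 window (65.6%) 1 match to the AP-1-like pattern, with T in its middle. Among members that gave no call with JQ1, the EPGN window also held 1 TATA box. The TGFA window (75.6%) held 3 GC boxes and no TATA box, and the BTC window (62.0%) held 0 of the motifs. The windows of AREG and NRG1 are not described here. Among the 35116 promoter windows of this length, 10.7% held the TATA box, 42.6% the GC box and 6.57% the AP-1-like pattern. The CRE motif was held by 1.65%, the E-box motif by 6.34% and the CArG box by 1.16%. Matches describe these letters and are not evidence of a bound factor.

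The comparison of JQ1 with DMSO asks how the ligand and receptor transcripts respond to inhibition of both bromodomains. EREG fell 3.72-fold, HBEGF rose 1.82-fold, and the 3 receptors fell by smaller amounts, ERBB3 1.32-fold, EGFR 1.22-fold and ERBB2 1.2-fold. The probe sets of TGFA, BTC, EPGN and NRG1 did not pass. Thus 1 of the 6 ligands was higher, 1 was lower, and 3 of 3 receptors were lower, at an adjusted p under 0.05 in a limma fit adjusted over all 19816 probe sets. Of all probe sets, 21.8% passed in either direction, 10.4% higher and 11.5% lower, so calls were common in this comparison. The JQ1 and DMSO arrays did not overlap for 5 of the 9 members, the same 5 that passed, beside 50.1% of all probe sets. In RNA from a whole culture, fewer cells with a transcript and less of it per cell cannot be told apart.

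EREG, the probe set 8095728 on chromosome 4, encodes epiregulin, a ligand of EGFR and ERBB4. Its log2 signal on the DMSO arrays was 7.80, 8.0 and 7.96, on the JQ1 arrays 6.39 and 5.67, and on the RVX-208 arrays 7.31, 7.36 and 7.29. The 3 groups did not overlap: the DMSO arrays were highest, the RVX-208 arrays lay together between, and both JQ1 arrays were lowest but stood 0.72 apart. The means were 7.92 ± 0.11 (SD, n = 3) in DMSO and 6.03 ± 0.51 (n = 2) with JQ1. The log2 fold change was −1.90 ± 0.18 SE (95% interval −2.30 to −1.49, adjusted p = 2.569e-04), the second lowest of the table. Its size depended on the JQ1 array, at −1.54 without JQ1 replicate 2 and −2.25 without JQ1 replicate 1, and the call held in all 16 alternative settings.

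HBEGF, the probe set 8114572 on chromosome 5, encodes a heparin-binding ligand of EGFR and ERBB4 and is known as a gene that growth factors induce quickly. Its log2 signal was 7.52, 7.56 and 7.57 on DMSO arrays, 8.51 and 8.32 on JQ1 arrays, and 7.73, 7.61 and 7.72 on RVX-208 arrays. Both JQ1 arrays lay above every other array, by 0.76 over the highest DMSO array, and the DMSO arrays lay within 0.05 of each other. The log2 fold change with JQ1 was 0.87 ± 0.07 SE (95% interval 0.71 to 1.03, adjusted p = 1.435e-04). It ranged from 0.70 with arrays centred on housekeeping genes to 0.96 without JQ1 replicate 2.

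**Figure D1:**
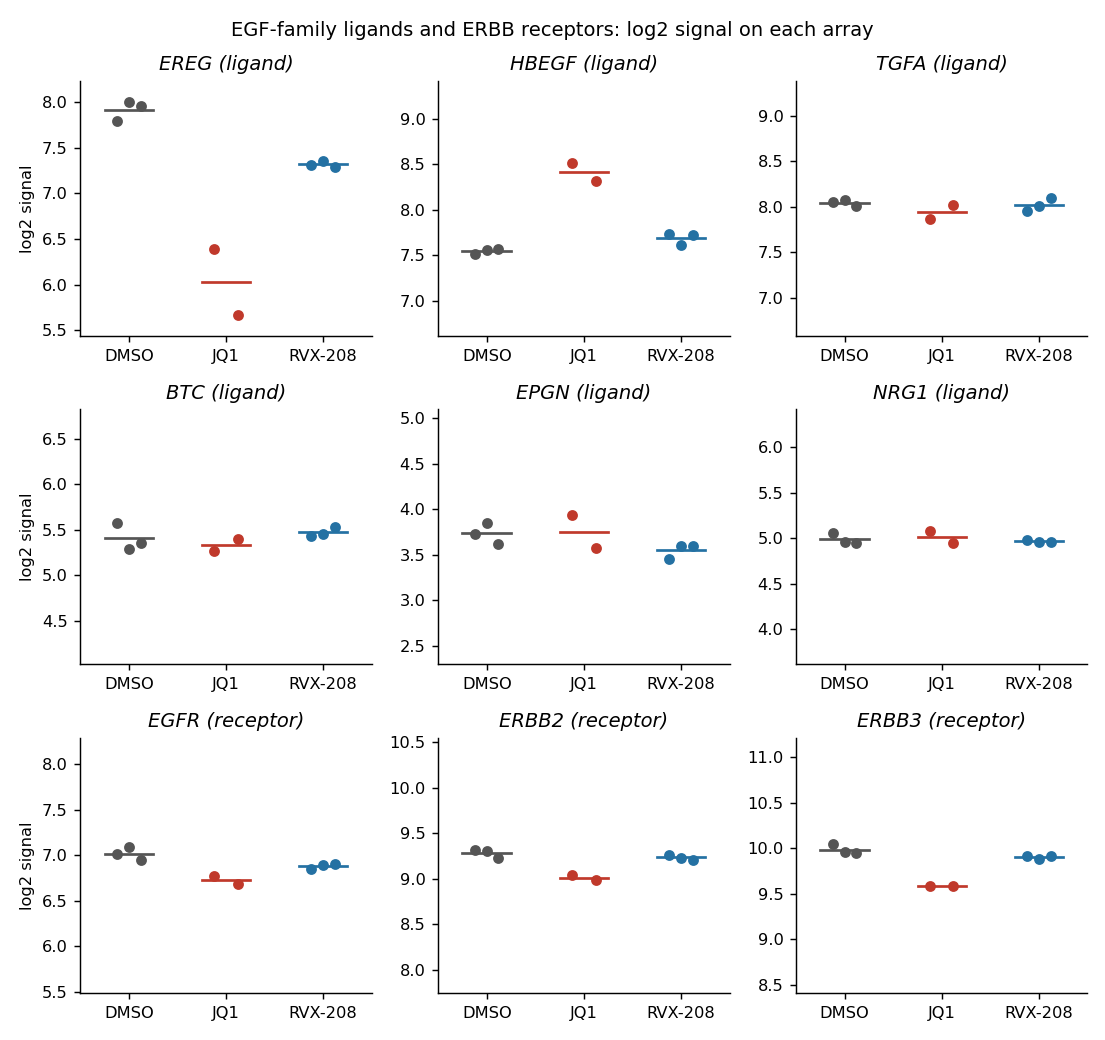
Log2 signal of the 6 ligands and 3 receptors on each array (points) with the group mean (bar), for DMSO, JQ1 and RVX-208; every panel spans the same range of log2 units around its own midpoint. EREG falls from 7.92 in DMSO to 6.03 with JQ1, HBEGF rises from 7.55 to 8.41, and the JQ1 arrays of the 3 receptors lie below all DMSO arrays.

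The other ligands gave no call. TGFA, a ligand of EGFR made by many epithelial cells, had log2 signals of 8.05, 8.07 and 8.01 in DMSO, 7.87 and 8.02 with JQ1, and 7.95, 8.01 and 8.09 with RVX-208. These groups overlapped, and the log2 fold change with JQ1 was −0.11 ± 0.07 SE (95% interval −0.26 to 0.05, adjusted p = 0.304), which leaves out a change of the size seen for HBEGF. When arrays were centred on housekeeping genes, which moved the median of all probe sets from −0.040 to −0.205, TGFA passed at −0.27. Before centring, however, 2 of the 10 housekeeping genes tested were themselves called higher with JQ1, B2M at 0.42 and GUSB at 0.22. The median of these 10 genes was 0.131, so this centring does not rest on an unchanged reference.

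The probe sets of BTC, EPGN and NRG1 were dim, and fold changes of dim probe sets are compressed. BTC lay at 5.29 to 5.57 over the 8 arrays, NRG1 at 4.95 to 5.08 and EPGN at 3.45 to 3.94, where 22%, 16.3% and 3.01% of all probe sets had a mean as low or lower. With JQ1 the log2 fold change was −0.07 ± 0.09 SE for BTC (95% interval −0.28 to 0.14), 0.02 ± 0.11 for EPGN (−0.25 to 0.28) and 0.03 ± 0.06 for NRG1 (−0.11 to 0.17). No detection calls come with the table, so it is not known whether these 3 transcripts were above background.

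EPGN, EREG, AREG and BTC are neighbours on chromosome 4 in the reference gene table (GRCh38.p14), in this order. The gene MTHFD2L and the noncoding genes within 3 positions of them are not analysed here. The fall of EREG was accompanied by no call at EPGN or BTC, whose intervals with JQ1 reached down to −0.25 and −0.28, while that of EREG spanned −2.30 to −1.49. Since both neighbours are dim, a fall of theirs may not be detectable on these arrays.

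All 3 receptors were lower with JQ1. ERBB3, the neuregulin receptor (probe set 7956120, chromosome 12), had log2 signals of 10.04, 9.96 and 9.95 in DMSO, 9.58 and 9.58 with JQ1, and 9.91, 9.88 and 9.91 with RVX-208. The JQ1 arrays lay 0.36 below the lowest DMSO array, and the log2 fold change was −0.40 ± 0.05 SE (95% interval −0.52 to −0.28, adjusted p = 0.0012). The call of ERBB3 held in all 16 alternatives.

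ERBB2, the partner receptor without a known ligand (probe set 8006906, chromosome 17), had log2 signals of 9.31, 9.30 and 9.23 in DMSO, 9.04 and 8.98 with JQ1, and 9.26, 9.23 and 9.21 with RVX-208. Its log2 fold change with JQ1 was −0.27 ± 0.05 SE (95% interval −0.39 to −0.15, adjusted p = 0.00844). EGFR, the receptor of most ligands measured here (probe set 8132860, chromosome 7), stood at 7.02, 7.09 and 6.95 in DMSO, 6.77 and 6.69 with JQ1, and 6.85, 6.90 and 6.91 with RVX-208. Its log2 fold change was −0.29 ± 0.06 SE (95% interval −0.43 to −0.15, adjusted p = 0.0115). For both genes every JQ1 array lay below every DMSO array, by 0.19 for ERBB2 and 0.18 for EGFR. Both calls were lost without JQ1 replicate 2, with log2 fold changes of −0.24 (adjusted p = 0.0608) and −0.25 (adjusted p = 0.084), and held in the other 15 alternatives. With that array left out, 3 of the 9 members passed in place of 5.

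**Figure D2:**
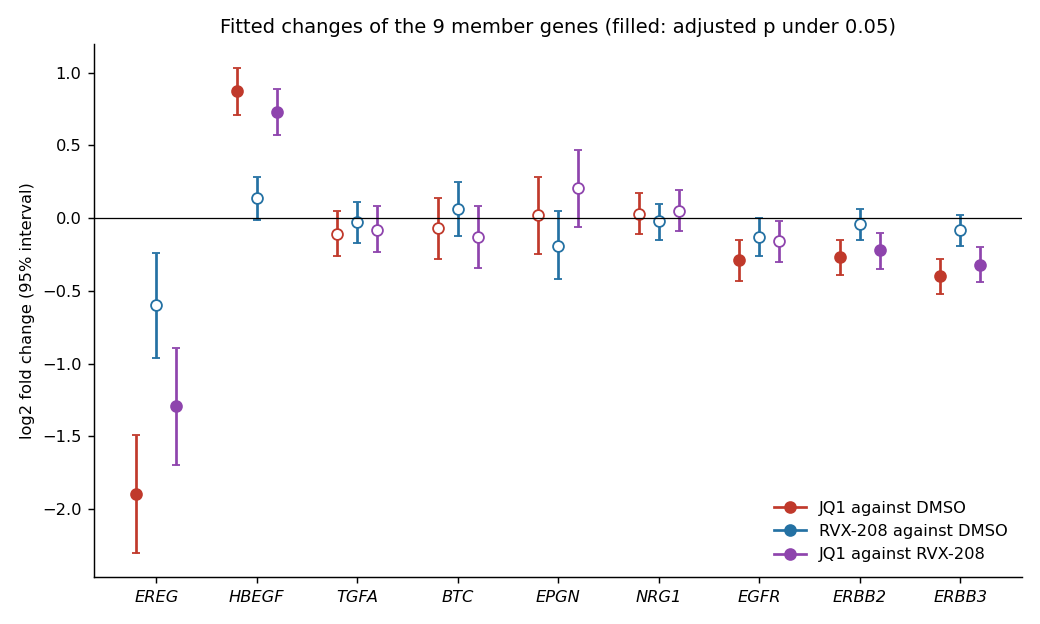
Fitted log2 fold change (y axis) with its 95% interval for each of the 9 genes (x axis) in 3 comparisons; filled points have an adjusted p under 0.05. EREG at −1.90 and HBEGF at 0.87 stand apart in the comparison of JQ1 with DMSO, and the receptors lie between −0.40 and −0.27.

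The same 9 transcripts were then followed under RVX-208. In the limma fit, 0 of the 9 members passed at an adjusted p under 0.05, beside 5.21% of all probe sets (2.65% higher, 2.56% lower). EREG came nearest, with a log2 fold change of −0.60 ± 0.16 SE (95% interval −0.96 to −0.24, unadjusted p = 0.00469, adjusted p = 0.0617), or 1.52-fold lower. All 3 RVX-208 arrays of EREG lay below all DMSO arrays, by 0.44, and their SD was 0.04. EREG and EGFR (unadjusted p = 0.0441) were the 2 members with an unadjusted p under 0.05.

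The call of EREG with RVX-208 depended on the fit. The spread in the fit is shared by the 3 groups, and for EREG the 2 JQ1 arrays, 0.72 apart, add most to it. Without JQ1 replicate 1 or without JQ1 replicate 2 the adjusted p was 0.0211, with the same log2 fold change of −0.60, because a lone JQ1 array adds nothing to the spread. The fit on DMSO and RVX-208 arrays alone gave the same value. EREG passed in 7 of 16 alternatives, with adjusted p-values from 0.0211 to 0.17, and its log2 fold change stayed between −0.70 and −0.56 in all of them.

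For the other members the changes with RVX-208 were small. HBEGF stood at 0.14 ± 0.06 SE (95% interval −0.01 to 0.28, adjusted p = 0.198) and EGFR at −0.13 ± 0.05 (adjusted p = 0.172). ERBB3 stood at −0.08 ± 0.05 (95% interval −0.19 to 0.02) and ERBB2 at −0.04 ± 0.05 (−0.15 to 0.06), which leaves out a fall of the size of ERBB3 with JQ1. EPGN was at −0.19 ± 0.10, BTC at 0.06 ± 0.08, TGFA at −0.03 ± 0.06 and NRG1 at −0.02 ± 0.05. For 5 of the 9 members, EREG, HBEGF, EPGN, EGFR and ERBB3, the RVX-208 and DMSO arrays did not overlap, as was so for 33.8% of all probe sets. The gaps other than that of EREG were 0.03 to 0.04. With housekeeping centring EGFR also passed, at −0.23, and the median of all probe sets moved from −0.022 to −0.122.

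The treatments were then compared directly, JQ1 at 500 nM with RVX-208 at 5000 nM. EREG was lower with JQ1 by 1.29 ± 0.18 SE log2 units, a log2 fold change of −1.29 (95% interval −1.70 to −0.89, adjusted p = 0.00356). HBEGF was higher by 0.73 ± 0.07 (0.57 to 0.89, adjusted p = 8.514e-04). ERBB3 (−0.32 ± 0.05, adjusted p = 0.00799) and ERBB2 (−0.22 ± 0.05, adjusted p = 0.0334) were lower with JQ1. Thus 4 of the 9 members passed, 1 higher and 3 lower, beside 10.4% of all probe sets (3.96% higher, 6.39% lower). The arrays did not overlap for 6 of the 9, beside 42.3% of all probe sets. EGFR did not pass (−0.16 ± 0.06, 95% interval −0.30 to −0.02, adjusted p = 0.154), so its fall with JQ1 is not shown to exceed that with RVX-208.

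Of these calls, EREG and HBEGF held in all 16 alternatives. EREG gave −0.93 without JQ1 replicate 2 and −1.65 without JQ1 replicate 1. ERBB3 missed the threshold without JQ1 replicate 1 (−0.32, adjusted p = 0.0537). ERBB2 held in 8 of 16 and in 2 of the 8 fits without 1 array, those without DMSO replicate 1 or 3. Its adjusted p was 0.0553 without DMSO replicate 2, 0.0985 and 0.162 when JQ1 replicate 1 or 2 was omitted, and from 0.0726 to 0.0947 when any RVX-208 array was omitted. Its log2 fold change kept between −0.29 and −0.19 throughout. Without JQ1 replicate 1, 2 members passed in place of 4.

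The authors' deposited table holds an F test over both treatments for each probe set. In the authors' deposited table the adjusted p-value of that test was 3.883e-04 for HBEGF, 8.188e-04 for EREG, 0.00321 for ERBB3, 0.019 for ERBB2 and 0.0291 for EGFR, and 0.29 to 0.782 for the other 4 members.

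**Figure D3:**
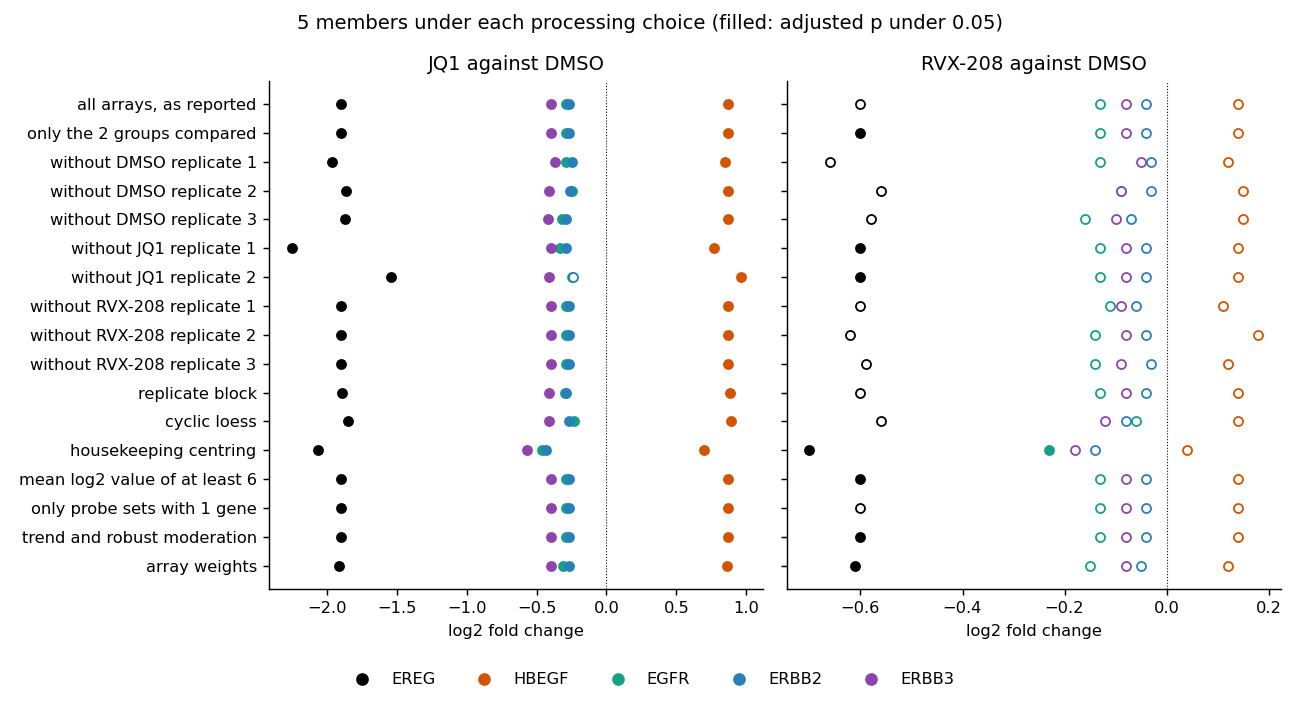
Log2 fold change (x axis) of the 5 members that passed with JQ1, under each way of processing (y axis), for JQ1 and for RVX-208 against DMSO; filled points have an adjusted p under 0.05. With JQ1 all points of EREG lie between −2.25 and −1.54; with RVX-208 its points lie between −0.70 and −0.56 and 7 of the 16 alternatives show filled points.

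The genes whose log2 signals, taken relative to their own DMSO mean, lay nearest to those of EREG over the 8 arrays were found by the root mean square difference. They were PALMD (0.226 log2 units), MAB21L3 (0.274), TNS4, a tensin gene of focal adhesions (0.288), the lactate receptor gene HCAR1 (0.331) and GPAM (0.353), an enzyme gene of triglyceride synthesis. The median over all probe sets with 1 gene was 1.011. These genes were picked for their likeness to EREG on the same 8 arrays, so the order they share with it (JQ1 lowest, then RVX-208, then DMSO) follows from the choice and their values are a description. Their log2 fold changes with JQ1 were −1.84 to −1.43 and with RVX-208 −0.82 to −0.37. Their SE with JQ1 was 0.07 to 0.09 against 0.18 for EREG. Both comparisons share the DMSO arrays.

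**Figure D4:**
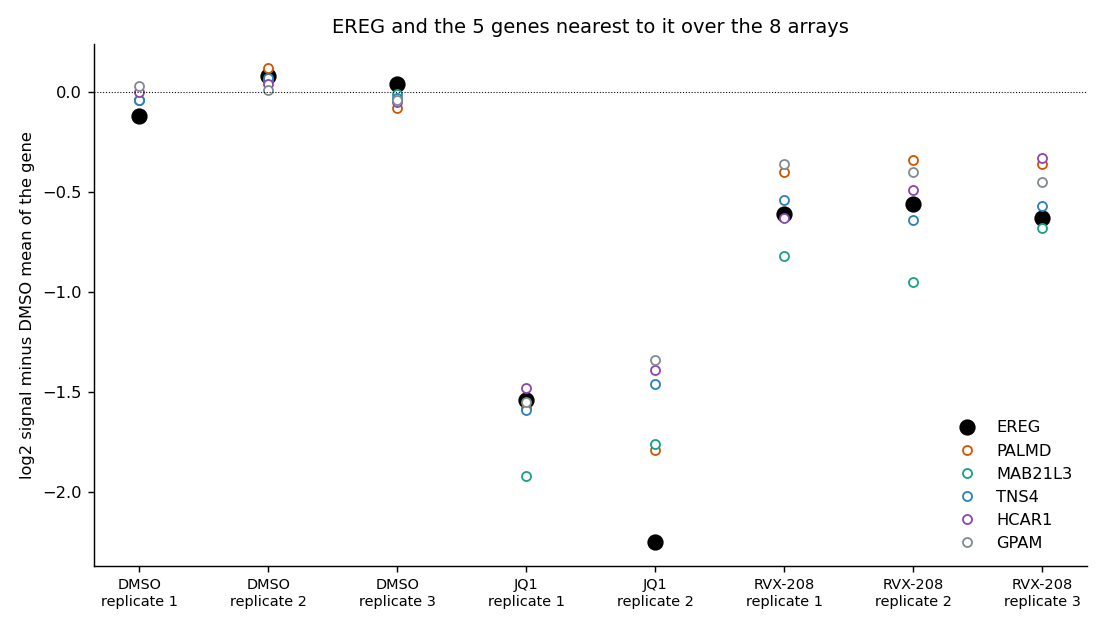
Log2 signal minus the gene's own DMSO mean (y axis) on each of the 8 arrays (x axis) for EREG (filled) and the 5 genes nearest to it (open). EREG is at −1.54 and −2.25 on the JQ1 arrays and at −0.63 to −0.56 on the RVX-208 arrays; on JQ1 replicate 2 it lies below the other 5 genes.

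The remaining genes of the pathway were described by lists for other family members, ligand shedding, signal transduction, brakes on the receptors or on MAP kinase, and early response genes. The lists were chosen with earlier results of these data known, so their shares of calls may reflect the choice. Of their 74 entries, 66 were tested and 8 are not analysed here. With JQ1 22 of the 66 passed, 12 higher and 10 lower, which is 33.3% beside 21.8% of all probe sets. With housekeeping centring 42 passed, 7 higher and 35 lower, and the median of all probe sets moved from −0.040 to −0.205. The genes used for that centring had a median of 0.131 with JQ1 before it. With RVX-208 3 passed, 1 higher and 2 lower, or 4.55% beside 5.21%, and in the fits without 1 array the count was 0 or 1. That count depended strongly on the processing, with 16 genes (0 higher, 16 lower) under housekeeping centring, 10 under trend and robust moderation and 8 under a minimum mean log2 value of 6. Between the treatments 14 passed, 8 higher and 6 lower with JQ1, or 21.2% beside 10.4% of all probe sets. Under housekeeping centring 6 were higher and 8 lower. The share of all probe sets that passed under these alternative settings was not counted.

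The remaining ligand and receptor genes EGF, NRG2, NRG3, NRG4 and ERBB4 gave 0 of 5 calls with JQ1, beside 21.8% of all probe sets. Their log2 fold changes were −0.18 to 0.14, with a median of −0.074 beside −0.040 for all probe sets. Apart from NRG2 these probe sets were dim, with mean log2 signals in DMSO of 3.49 (NRG4), 4.56 (EGF), 5.41 (ERBB4) and 5.77 (NRG3). As for BTC, EPGN and NRG1, their fold changes are compressed and it is not known whether they were above background. Of 9 genes of ligand shedding 0 passed, with a median of −0.043 and a range of −0.24 to 0.29. Among them, ADAM17, the protease that frees most EGFR ligands, stood at 0.11 ± 0.06 SE (95% interval −0.02 to 0.25), and ADAM10, which cuts BTC among others, at −0.01 ± 0.05 (−0.13 to 0.10). Both intervals leave out changes of the size of EREG or HBEGF. With only 5 and 9 genes, 0 calls do not show that these lists responded less than other genes.

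In signal transduction 3 of 20 genes were higher with JQ1, 3 lower and 14 did not pass, which is 30.0% called beside 21.8% of all probe sets, with a median of −0.032. SRC, a kinase that acts with EGFR, fell by 0.67 ± 0.05 SE (adjusted p = 1.402e-04), from a mean of 9.08 ± 0.04 (SD, n = 3) to 8.41 ± 0.02 (n = 2). GAB2, a docking protein for PI3-kinase, fell by 0.48 ± 0.06 and the kinase gene AKT2 by 0.22 ± 0.05. MAP2K1, the kinase MEK1, rose by 0.38 ± 0.08, PIK3R1, the regulatory subunit of PI3-kinase, by 0.29 ± 0.07, and SOS2, an exchange factor for RAS, by 0.26 ± 0.06. The calls of SRC and GAB2 held in every fit without 1 array. MAP2K1 was lost without JQ1 replicate 1 (adjusted p = 0.0771) or 2 (0.058), and PIK3R1 without DMSO replicate 3 (0.0529) or JQ1 replicate 2 (0.121, log2 fold change 0.17). SOS2 was lost without DMSO replicate 3 (0.0538) or JQ1 replicate 1 (0.102) or 2 (0.0872), and AKT2 without DMSO replicate 1 (0.0504) or JQ1 replicate 1 (0.0582) or 2 (0.114). Housekeeping centring also ended the 3 rises, at 0.21, 0.12 and 0.09. The fit on only JQ1 and DMSO arrays ended the calls of PIK3R1 (adjusted p = 0.0594) and AKT2 (0.0502).

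Of 19 brakes, 4 rose with JQ1, 5 fell and 10 did not pass, or 47.4% called beside 21.8% of all probe sets, with a median of −0.111 beside −0.040. The brakes thus moved in both directions. SOCS4, a suppressor of cytokine and EGFR signalling, and DUSP6, the phosphatase of ERK, rose by 0.47 ± 0.08 and 0.47 ± 0.06 SE (adjusted p = 0.00354 and 9.904e-04). RNF41, the ubiquitin ligase of ERBB3 also called NRDP1, rose by 0.39 ± 0.06 (adjusted p = 0.00318). SPRY1, an inhibitor of RAS and MAP kinase signalling, fell by 0.55 ± 0.08 (adjusted p = 0.0016). LRIG1, which promotes the turnover of ERBB receptors, fell by 0.54 ± 0.08 (adjusted p = 0.00207). Its relative LRIG3, whose own role as a brake was not tested here, fell by 0.46 ± 0.07 (adjusted p = 0.00229). ERRFI1, which binds and blocks EGFR, stood at −0.15 ± 0.06 (adjusted p = 0.12).

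Early response genes, which growth factors induce through MAP kinase, had 5 of 13 members higher and 2 lower with JQ1, or 53.8% called beside 21.8% of all probe sets, with a median of −0.003. EGR1 rose by 0.62 ± 0.07 SE (adjusted p = 4.693e-04), MCL1 by 0.47 ± 0.06 and DUSP1 by 0.42 ± 0.06. MYC fell by 0.67 ± 0.06 (adjusted p = 2.135e-04) and FOSL1 by 0.42 ± 0.08, the latter lost without JQ1 replicate 2 (−0.37, adjusted p = 0.0652).

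With RVX-208, GAB2 fell by 0.25 ± 0.05 (adjusted p = 0.0414), PHLDA1 fell by 0.23 ± 0.05 (adjusted p = 0.0433) and RNF41 rose by 0.26 ± 0.06 (adjusted p = 0.0423). RNF41 was on the same side with JQ1 (0.39) and GAB2 too (−0.48), while PHLDA1 stood at −0.06 ± 0.06 with JQ1. The calls of GAB2 and PHLDA1 were lost in all 8 fits without 1 array, with adjusted p-values of 0.0601 to 0.138 and 0.0602 to 0.139. RNF41 kept its call in 2 of these 8 fits, those without a JQ1 array, and reached 0.132 without RVX-208 replicate 3.

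**Figure D5:**
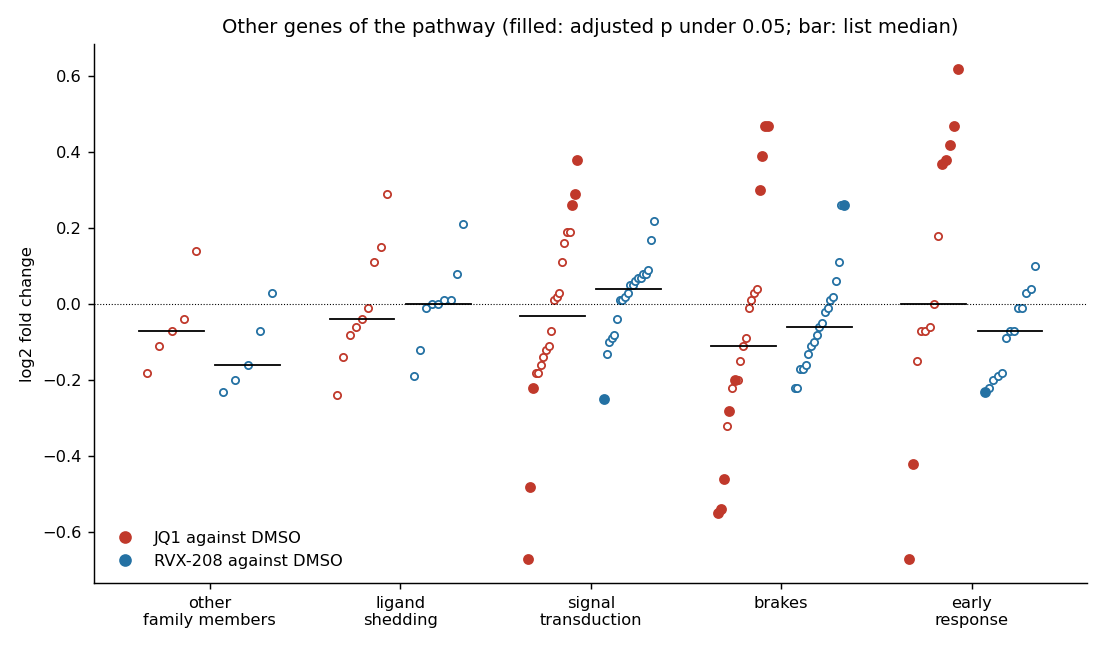
Log2 fold change (y axis) of each tested gene of the 5 lists (x axis) against DMSO, for JQ1 and RVX-208; filled points have an adjusted p under 0.05 and bars are list medians. With JQ1 filled points lie on both sides of 0 in signal transduction, brakes and early response. Of the 14 genes of the first 2 lists 0 are filled, while 21.8% of all probe sets passed with JQ1.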

How the data were processed

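RNA from the 8 samples was measured on Affymetrix Human Gene 1.0 ST arrays. The authors deposited log2 values per transcript cluster, made with RMA (R 2.15.3, limma 3.14.4) per the submitters' processing notes. A second table deposited by the authors holds a log2 fold change per treatment, the F statistic (a score) and the p-value from limma, per the file headers. Its JQ1 fold changes equalled differences of group means within 1e-04 for 19815 of 19816 probe sets. Filter and annotation are not given in the sources used here. Probe sets were named from GEO's platform annotation (17859 with 1 gene, 997 with several, 960 unnamed). 1 linear model with a mean per group was fitted over all 8 arrays with limma 3.58.1 (R 4.3.3, eBayes defaults, two-sided, 8.25 degrees of freedom). P-values were adjusted by Benjamini-Hochberg over all 19816 probe sets, and a call is an adjusted p under 0.05. List genes with several probe sets used the brightest. Up to 3 called genes per list and direction were named, and the 5 genes nearest to EREG. The fit was also run on simulated data with independent noise and 200 changed probe sets. The outcome of that run is not reported here. Members and lists were chosen with earlier results of these data known. Alternatives were fits on only the groups compared, without each array, with the replicate number as a block, after cyclic loess, with housekeeping centring, with a mean log2 value of at least 6, with 1-gene probe sets, with trend and robust moderation, and with array weights. Tables and plots used Python 3.11.15, pandas 2.3.3 and matplotlib 3.10.9.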

Additional observations from a re-analysis of the deposited data

How the results depend on the processing

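The falls of EREG and ERBB3 and the rise of HBEGF with JQ1 passed in all 16 alternatives. Leaving out 1 array gave 3 to 5 members called with JQ1 (EGFR −0.33 to −0.25, ERBB2 −0.29 to −0.24), 0 to 1 with RVX-208 (EREG −0.66 to −0.56) and 2 to 4 between the treatments (ERBB2 −0.25 to −0.20, ERBB3 −0.33 to −0.31); for the 66 pathway genes it gave 16 to 22, 0 to 1 and 6 to 13 calls. Uncalled members changed sign near 0 in such fits: with JQ1 BTC (−0.14 to 0.02), EPGN (−0.17 to 0.20) and NRG1 (−0.04 to 0.09), with RVX-208 TGFA (−0.07 to 0.00) and NRG1 (−0.04 to 0.01), and between the treatments NRG1 (−0.01 to 0.12).

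With housekeeping centring TGFA passed with JQ1 (−0.27), EPGN (−0.15) and NRG1 (−0.14) changed sign, and 42 pathway genes passed. The same centring gave 2 members with RVX-208, EREG (−0.70) and EGFR (−0.23), a sign change for BTC (−0.04) and 16 pathway genes; between the treatments EGFR passed (−0.23) and NRG1 changed sign (−0.01). By construction it moves all probe sets of an array together, and the housekeeping genes were themselves shifted. Before centring their median log2 fold change was 0.131 with JQ1 and 0.095 with RVX-208, beside −0.040 and −0.022 for all probe sets. Cyclic loess turned BTC with JQ1 (0.00) and NRG1 with RVX-208 (0.06), and array weights turned EPGN with JQ1 (−0.01). With RVX-208, 1 member, EREG, passed with only the 2 groups compared (−0.60), a mean log2 value of at least 6 (−0.60), trend and robust moderation (−0.60) and array weights (−0.61). The pathway genes called with RVX-208 then numbered 1 with only the 2 groups, 8 with the minimum of 6 and 10 with trend and robust moderation. The share of all probe sets called in these settings was not counted. ERBB2 between the treatments missed the threshold with only the 2 groups compared (−0.22). Where no construction is named, the cause was not tested.

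Deviations of same-numbered arrays from their group means had r = −0.127 to 0.079 (7 pairs), beside −0.079 to 0.085 for pairs with different numbers. Such deviations cancel within a group, so the pairs are not independent and these values cannot decide whether samples were paired. The labels give only replicate numbers, which are not taken to pair samples. With the replicate block ERBB2 between the treatments missed the threshold (−0.24, adjusted p = 0.0736), SOS2 missed it with JQ1 (0.25, adjusted p = 0.0733), 0 pathway genes passed with RVX-208, and 5 members passed with JQ1. Of the 20 calls of named pathway genes, 8 were lost in some alternative and 0 changed direction. The minimum of 6 removes BTC, EPGN and NRG1.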
